A study of Mus musculus with 6 samples.

Results

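Pseudogenes are copies of genes that no longer encode the full protein. Processed pseudogenes arose when an mRNA was copied back into DNA and inserted elsewhere in the genome, so that they lack introns and usually the parent's promoter. Unprocessed pseudogenes arose by duplication of a gene with its introns, and unitary pseudogenes are genes that lost their function without a working copy in the same genome. Some are transcribed, and because many still resemble the parent gene closely, short sequencing reads cannot always be placed on the copy or on the parent.

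The features described here were the 490 of 34518 rows of the authors' deposited table that overlapped, on the listed strand, an exon of a GENCODE M21 gene of a pseudogene type, that overlapped no protein-coding gene body on either strand, and that overlapped no exon of a long noncoding or small RNA gene on the listed strand. Of 584 features over a pseudogene exon, 94 were left out by these exclusions. RNA came from the left atria of adult mice of the CD1 strain in 2 groups of 3 libraries. The first group overexpressed FOG2, the product of Zfpm2 and a partner of GATA factors in heart development (FOG2_OE, animals that the labels call DTG), and the second was wild type (WT, animals called NTG). Animals of both groups were reared without doxycycline for 1 week. The labels do not give the promoter or cell type that drove FOG2, nor whether atria were pooled. Ribosomal and polyadenylated RNA had been removed, so that the spliced mRNA of parent genes was depleted before sequencing. The tissue was bulk, and fewer cells of a type cannot be told apart from less RNA per cell.

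The libraries had effective sizes between 71180401 and 84907173 reads. The 6 sample columns of the table were constant multiples of each other within a group, and therefore hold what the authors' model fitted, not counts. A level is given here as the fitted value in CPM, counts scaled to a fixed effective library size, 1 value per group, with no SD over replicates. A change is given as the log2 ratio of FOG2_OE to WT, the authors' log2 fold change. Its error is the implied SE, on the log2 scale, worked back from the authors' likelihood ratio, and a feature is termed called at an adjusted p under 0.05 of that test (edgeR, Benjamini-Hochberg over all 34518 features). Nothing in the labels says whether the libraries of a group came from separate animals, so the p-values measure the spread between these libraries. The listed strand is not taken as measured, since the kit does not mark strand. The largest feature inside Zfpm2 stood at 416 CPM in FOG2_OE against 0.484 CPM in WT, in the direction of the labels. Of 18 marker genes of atrium, ventricle and other cell types, 6 had a listed feature. The 7 features of the left atrial genes Myl7, Myl4 and Sln summed to 6.64 CPM in FOG2_OE against 10.6 CPM in WT, with 1 Myl7 and 1 Sln feature called, while those of Myl4 alone stood at 2.94 and 2.59 CPM. Nppa and the ventricular, blood, smooth muscle and fat markers had no listed feature. Features over the endothelial gene Pecam1 summed to 1.11 and 0.690 CPM and those over the fibroblast gene Col1a1 to 0.211 and 0.0690 CPM. The feature over the leukocyte gene Cd68 stood at 0.0470 and 0.0925 CPM, and the part of these markers in the results was not tested.

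The 490 features lay over 426 pseudogenes on 20 chromosomes. Of these pseudogenes, 379 had 1 feature, 37 had 2 and 10 had 3 or more. Processed pseudogenes made up 358 of the features, unprocessed 48, transcribed unprocessed 45, transcribed processed 26, transcribed unitary 5, polymorphic 4, unitary 2 and unclassified pseudogenes 2. Feature width ran from 101 to 143433 bases with a median of 220.5, against 238 over all features. Pseudogene exons covered the whole feature in 269 cases, at least 50% of it in 349, and under 50% in 141, so that in the last class most of the measured span lay outside the annotated copy. The nearest start of a coding gene was a median of 41.1 kb away. It lay within 10 kb for 73 features and beyond 100 kb for 150.

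A coding parent gene could be assigned by sequence to 431 of the 490 features, over 296 parents with a median identity of 95.5% (range 70.3 to 100%). Gapdh, a glycolytic enzyme gene with many processed copies in rodent genomes, was the parent of 45 features. Gvin1, Hpcal1 and Cdh11 had 7 each and the elongation factor gene Eef1a1 had 6. The longest stretch shared without a mismatch with a coding transcript had a median of 59 bases, was at least 50 bases in 302 features and at least 100 bases in 130. A coding transcript of at least 95% identity over at least 90% of the pseudogene piece existed for 278 features, and such a match among other pseudogenes for 136, with up to 132 near-identical pseudogenes for a single feature. Of the 380 pseudogenes with aligned parent codons, 255 (67.1%) carried an in-frame stop codon or a frame shift against the parent, and 125 carried neither in the aligned part.

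The sequences below show how close such copies are to their parents. They are taken from the GENCODE M21 transcripts (mm10), are written 5' to 3' on the strand of each gene, and run over at most 180 aligned positions from the 5' end of the alignment inside the parent's coding sequence. The sequences of the CD1 mice used here may differ from this build and were not examined. Capitals mark the bases that differ between the members of a pair. The first pair belongs to the called feature with the closest parent, Gm8399, a processed copy of the cytoplasmic actin gene Actg1. The shown stretch is the whole feature (MSTRG.24624, chr13:81065243-81065398, + strand), and it differs from the Actg1 coding sequence (chr11:120346990-120347145, - strand) at 2 of 156 positions.
Gm8399: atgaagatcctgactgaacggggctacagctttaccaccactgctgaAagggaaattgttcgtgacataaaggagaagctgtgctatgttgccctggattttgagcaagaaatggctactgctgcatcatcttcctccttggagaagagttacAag
Actg1: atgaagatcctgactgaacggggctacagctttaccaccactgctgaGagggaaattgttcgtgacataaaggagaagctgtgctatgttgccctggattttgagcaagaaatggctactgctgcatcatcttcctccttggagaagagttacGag

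Gm4813, a processed copy of the zinc finger gene Zbtb44, lies 35.5 kb from Gm8399, and both features were called higher in FOG2_OE. The shown stretch (chr13:81029569-81029746, - strand) differs from Zbtb44 (chr9:31053975-31054126, + strand) by 14 substitutions and by 26 inserted bases, written in capitals. The inserted bases repeat the 26 bases before them exactly, and their number is not a multiple of the codon length.
Gm4813: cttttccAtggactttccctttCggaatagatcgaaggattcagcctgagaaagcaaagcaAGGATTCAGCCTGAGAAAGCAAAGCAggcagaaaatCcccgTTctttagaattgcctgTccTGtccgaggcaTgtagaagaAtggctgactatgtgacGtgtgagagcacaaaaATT
Zbtb44: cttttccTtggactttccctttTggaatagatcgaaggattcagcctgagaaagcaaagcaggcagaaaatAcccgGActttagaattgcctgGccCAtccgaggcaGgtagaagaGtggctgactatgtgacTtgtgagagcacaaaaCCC

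Gm31520 and Gm6445 belong to features that were called lower. Gm31520 is a transcribed processed copy of Sc5d, a desaturase gene of cholesterol synthesis, and the shown stretch (chr6:66283705-66283884, + strand) has 16 differences in 180 positions. Its parent stretch comes from spliced exons between chr9:42255723-42258584 on the - strand. Over all aligned codons Gm31520 has 3 in-frame stop codons.
Gm31520: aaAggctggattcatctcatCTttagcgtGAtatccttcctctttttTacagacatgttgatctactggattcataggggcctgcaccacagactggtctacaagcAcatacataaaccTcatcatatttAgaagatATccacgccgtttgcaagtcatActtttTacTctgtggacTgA
Sc5d: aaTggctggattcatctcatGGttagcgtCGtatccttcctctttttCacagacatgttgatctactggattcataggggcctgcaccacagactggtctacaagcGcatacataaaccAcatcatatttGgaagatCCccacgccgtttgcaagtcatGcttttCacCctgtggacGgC

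Gm6445 is an unprocessed copy with an open frame over its aligned codons. Its feature (MSTRG.42423, chr19:9607965-9608075, + strand) has 7 differences in 111 positions from Zfp989 (chr4:146989731-146989841, + strand), the parent of the whole pseudogene, while over the same bases the closest coding match was another zinc finger gene, Zfp985, at 95.5% identity. Zinc finger genes of this kind form large families with repeated finger motifs.
Gm6445: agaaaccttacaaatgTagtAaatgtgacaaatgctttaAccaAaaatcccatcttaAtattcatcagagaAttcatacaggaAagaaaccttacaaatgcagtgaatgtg
Zfp989: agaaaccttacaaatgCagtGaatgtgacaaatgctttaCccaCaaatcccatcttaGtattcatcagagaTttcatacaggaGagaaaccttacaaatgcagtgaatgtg

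Copies of housekeeping genes are shown by Rpsa-ps10, the feature with the highest level among the ribosomal protein copies, and Gm6969, the highest among the respiratory chain copies. Rpsa encodes a protein of the small ribosomal subunit and Cox7a2l a factor of respiratory supercomplexes. Rpsa-ps10 (chr3:150072748-150072893, - strand) differs from spliced Rpsa (within chr9:120131022-120131401, + strand) at 1 of 146 positions, and 15 other pseudogenes are near-identical to it over this piece. Gm6969 (chr12:24638691-24638857, - strand) differs from spliced Cox7a2l (within chr17:83502625-83504147, - strand) by 2 substitutions and by 6 bases absent from this Cox7a2l sequence. Whether the copy gained or the parent lost these bases was not tested.
Rpsa-ps10: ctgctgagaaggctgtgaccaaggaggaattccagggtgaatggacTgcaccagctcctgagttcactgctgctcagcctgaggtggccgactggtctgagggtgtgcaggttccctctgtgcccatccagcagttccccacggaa
Rpsa: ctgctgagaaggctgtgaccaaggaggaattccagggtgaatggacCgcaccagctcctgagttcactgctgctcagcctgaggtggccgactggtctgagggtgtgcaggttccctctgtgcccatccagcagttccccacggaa
Gm6969: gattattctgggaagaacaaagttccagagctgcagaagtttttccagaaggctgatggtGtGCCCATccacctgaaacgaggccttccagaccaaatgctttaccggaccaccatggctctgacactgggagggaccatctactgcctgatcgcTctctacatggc
Cox7a2l: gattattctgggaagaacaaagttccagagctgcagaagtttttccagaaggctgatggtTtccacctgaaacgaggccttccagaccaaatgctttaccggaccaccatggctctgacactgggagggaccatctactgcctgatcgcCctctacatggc

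The last pair is Gm8417, a transcribed unprocessed copy that lies next to its parent Armh4 on chromosome 14, the only parent with a called feature over an exon of its own strand. The stretch at chr14:49806508-49806687 (+ strand) has 15 differences in 180 positions from Armh4 at chr14:49773397-49773576 (- strand).
Gm8417: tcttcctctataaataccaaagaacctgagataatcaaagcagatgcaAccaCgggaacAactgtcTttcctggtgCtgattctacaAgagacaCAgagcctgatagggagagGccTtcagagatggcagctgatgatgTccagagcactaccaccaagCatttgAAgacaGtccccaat
Armh4: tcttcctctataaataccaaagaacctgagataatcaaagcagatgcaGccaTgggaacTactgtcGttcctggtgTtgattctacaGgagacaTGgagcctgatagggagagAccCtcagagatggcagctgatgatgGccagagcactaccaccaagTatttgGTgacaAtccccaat

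In summed level the pseudogene exon features as a group were nearly equal in FOG2_OE and WT. Their sum was 656 CPM in FOG2_OE against 659 CPM in WT, a ratio of 0.995, or 0.0656% and 0.0659% of the library. The 2 features with the highest CPM held 21.4% of the sum and the 12 highest held 47.1%, and in 9 of these 12 pseudogene exons covered under 50% of the span. Over all features the ratio of sums was 1.18, and for the pseudogene exon features without the Gm8189 feature described below it was 1.08. The median log2 ratio in the authors' deposited table was 0.04 over the 490 features, against -0.21 over all 34518, a difference of 0.26. Positive fold changes numbered 262 and negative ones 228, while over all features 13588 were positive and 20930 negative. Exon features of long noncoding RNAs outside coding genes (1040) had a median of -0.20 and features outside all genes (17687) one of -0.27 in the authors' deposited table.

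Called features were 6 higher and 6 lower in FOG2_OE, 2.45% of the 490, against a background of 5.81% called among all features of the authors' deposited table. Split by direction the background was 1.16% higher and 4.65% lower, and the pseudogene exon features gave 1.22% in each. At an unadjusted p under 0.05 there were 21 higher and 18 lower features, where the authors' deposited table had a background of 4.52% higher and 12.5% lower. The share called was also under the background among the 201 features with at least 20 fitted counts per library, of which 2 were called higher and 5 lower (3.48%, against 9% of the 8176 features of that abundance, 1.76% higher and 7.24% lower). The median fitted count was 15.2 against 7.22 over all features, and the median implied SE was 0.57 against 0.75.

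**Figure D1:**
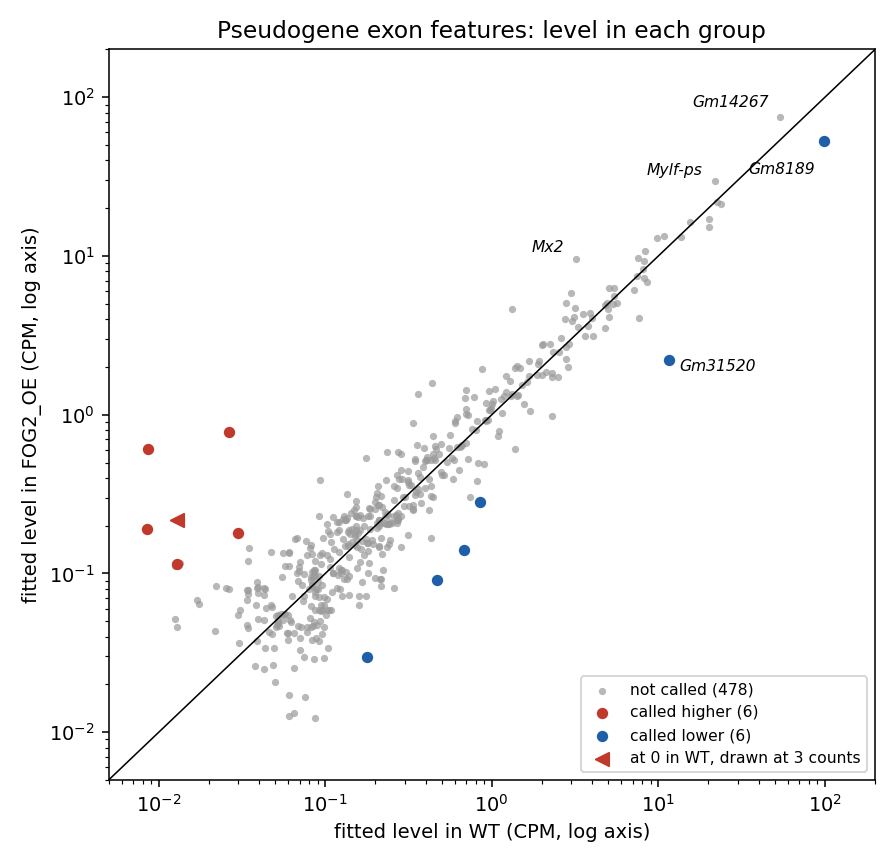
Fitted level of each of the 490 pseudogene exon features in WT (x axis, CPM, log scale) and FOG2_OE (y axis, CPM, log scale), with the line of equal levels. The 6 features called higher (red) stand at or under 0.0301 CPM in WT, and the 6 called lower (blue) run from 0.177 to 99.1 CPM in WT; the triangle is a feature at 0 in WT, drawn at the level of 3 counts over the group.

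The most abundant called feature was MSTRG.42358 over Gm8189, a transcribed unprocessed pseudogene without a close coding match (chr19:8466492-8498685). Its fitted values were 4217, 3836 and 4494 counts in the FOG2_OE libraries and 7051, 7767 and 8148 in the WT libraries, which within a group differ by library size alone. It stood at 52.9 CPM in FOG2_OE against 99.1 CPM in WT. The authors' deposited table gave a log2 ratio of -0.90 (implied SE 0.26, adjusted p = 0.0129). Pseudogene exons cover 6.67% of this 32194-base span. With the median ratio over all features centred at 1 its adjusted p was 0.102.

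The smallest adjusted p belonged to Gm31520, whose Sc5d-like sequence is shown above. MSTRG.69883 (chr6:66278602-66285111) stood at 2.21 CPM in FOG2_OE against 11.6 CPM in WT, and the authors' deposited table gave a log2 ratio of -2.39 (implied SE 0.31, adjusted p = 3.68e-11). Its exons cover 22.7% of the span, and the nearest coding start, that of the spindle checkpoint gene Mad2l1, is 250 kb away.

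Gm14694, an unprocessed copy of the X-linked lymphocyte-regulated gene Xlr5b, had 2 features called lower that lie 1.27 kb apart on chromosome X. MSTRG.89646 (chrX:74848982-74850371) stood at 0.141 CPM in FOG2_OE against 0.679 CPM in WT, and the authors' deposited table gave a log2 ratio of -2.25 (implied SE 0.56, adjusted p = 0.00273). MSTRG.89641 (chrX:74846848-74847716) stood at 0.0912 and 0.465 CPM, and the authors' deposited table gave a log2 ratio of -2.33 (implied SE 0.55, adjusted p = 0.000846). Pseudogene exons cover 10.4% of the former and 2.88% of the latter, and where the reads lie within the features was not measured.

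Olfr1372-ps1, a transcribed unprocessed pseudogene named for an odorant receptor, had 5 features, each wholly inside its exons. MSTRG.13182 (chr11:52162910-52164322) was called lower, at 0.283 CPM in FOG2_OE against 0.854 CPM in WT, and the authors' deposited table gave a log2 ratio of -1.59 (implied SE 0.51, adjusted p = 0.0404). All 5 had negative log2 ratios, from -1.59 to -1.08 in the authors' deposited table, and together they stood at 0.912 CPM in FOG2_OE against 2.31 CPM in WT, 2.53-fold lower. The other 4 did not pass the test, and features of 1 pseudogene may be pieces of 1 transcript, which was not tested. On the centred scale the adjusted p of MSTRG.13182 was 0.104.

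The last feature called lower was the Zfp989-like Gm6445 feature shown above, at 0.0296 CPM in FOG2_OE against 0.177 CPM in WT. The authors' deposited table gave a log2 ratio of -2.51 (implied SE 0.75, adjusted p = 0.00816). It held 8.0 fitted counts per library on average, and is among the 5 called features under 20.

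The features called higher were scarce in WT. The transcribed processed pseudogene 7530428D23Rik had 2 of them, 38.8 kb apart on chromosome 3. MSTRG.51967 (chr3:21753572-21753961) lies wholly inside its exons and stood at 0.607 CPM in FOG2_OE against 0.00864 CPM in WT, and the authors' deposited table gave a log2 ratio of 5.89 (implied SE 1.16, adjusted p = 1.49e-09). With 144 fitted counts in FOG2_OE and 2 in WT, the ratio of levels was 70.4 with an exact 95% interval of 19.1 to 587 that covers counting error only. MSTRG.51969 (chr3:21792783-21800715), of which exons cover 0.782%, stood at 0.781 and 0.0264 CPM, and the authors' deposited table gave a log2 ratio of 4.80 (implied SE 0.96, adjusted p = 5.19e-05).

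Gm8616, a processed copy of the ribonucleotide reductase gene Rrm2b, had the largest log2 ratio of the authors' deposited table among these features, 7.10 (adjusted p = 2.20e-05). MSTRG.21767 (chr13:3353972-3354138) stood at 0.218 CPM in FOG2_OE and was at 0 in WT. Against a floor of 3 counts over the WT group it was at least 16.8-fold higher, with no SE. From 52 fitted counts in FOG2_OE and 0 in WT, the exact 95% interval of the ratio began at 13.3, for counting error only. It shares 17 bases, 10.2% of its span, with the pseudogene, so that the label rests on its edge.

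Gm4813 and Gm8399 lie 35.5 kb apart on chromosome 13 inside the body of the long noncoding RNA gene 9330111N05Rik. The Gm4813 feature MSTRG.24621 (chr13:81029330-81029746) stood at 0.190 CPM in FOG2_OE against 0.00855 CPM in WT, and the authors' deposited table gave a log2 ratio of 4.24 (implied SE 1.21, adjusted p = 0.000483). Its ratio of levels was 22.0 (exact 95% interval of 5.75 to 187, counting error only), from 45 and 2 fitted counts. The Gm8399 feature had fitted values of 14.4, 13.1 and 15.3 counts in the FOG2_OE libraries and 2.14, 2.36 and 2.47 in the WT libraries. It stood at 0.180 and 0.0301 CPM, and the authors' deposited table gave a log2 ratio of 2.52 (implied SE 0.81, adjusted p = 0.0230). Its longest exact match to Actg1 is 105 bases, and 5 other pseudogenes are near-identical to it, so that its counts are uncertain.

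Dcdc5, annotated in the mouse as a transcribed unitary pseudogene of a doublecortin-domain gene, had 1 called feature. MSTRG.47762 (chr2:106076962-106077171) stood at 0.115 CPM in FOG2_OE against 0.0129 CPM in WT, and the authors' deposited table gave a log2 ratio of 3.01 (implied SE 1.12, adjusted p = 0.0452). The 27 and 3 fitted counts give a ratio of levels of 8.80 (exact 95% interval of 2.71 to 45.3, counting error only).

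**Figure D2:**
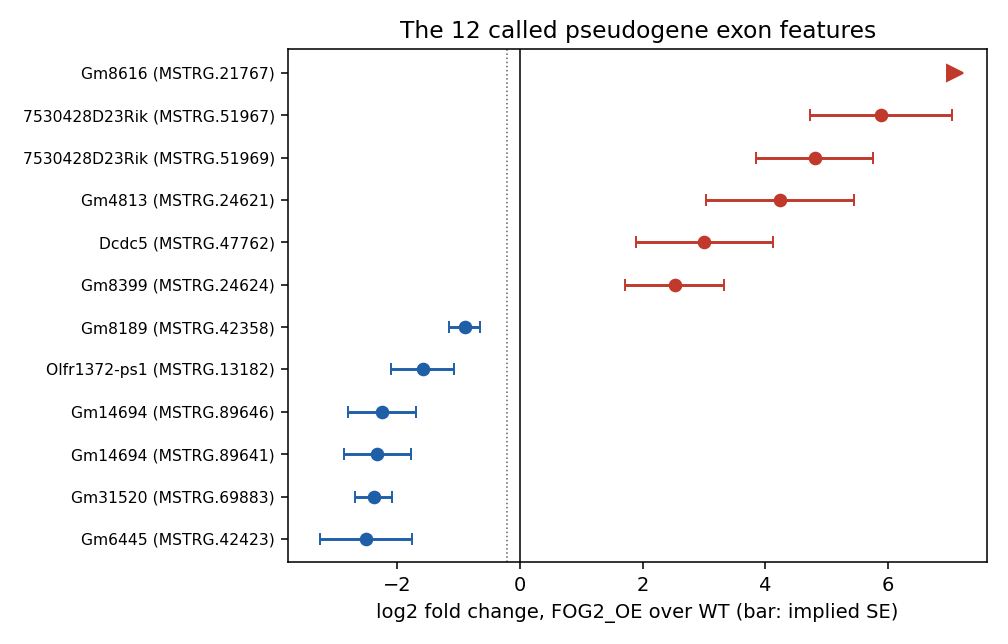
Log2 ratio, FOG2_OE over WT, of the 12 called features (points) with the implied SE as bars; the dotted line is the median of all features, -0.21. The triangle marks MSTRG.21767 over Gm8616, which is at 0 in WT and has no SE; the higher features have wider bars (0.81 to 1.21) than the lower ones (0.26 to 0.75).

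The 12 called features came from 10 pseudogenes at 9 loci when features within 100 kb were joined. In 6 of the 12, pseudogene exons covered under 50% of the span, and 5 of the 12 had under 20 fitted counts per library. The authors' test takes the dispersions as known. When their ratio was read against F on 1 and 10 degrees of freedom, 4 of the 12 passed, 3 higher and 1 lower, beside a background of 0.203% higher and 1.07% lower (1.27% in all). Against F on 1 and 4 degrees of freedom 0 passed, here and among all features (smallest adjusted p here = 0.583), while 8 higher and 8 lower features had an unadjusted p under 0.05, beside a background of 1.53% higher and 5.58% lower (7.12% in all). On the centred scale 10 of the 12 passed, beside a background of 1.62% higher and 3.47% lower (5.1% in all), and 3 others were added, all higher: Gm6166, a copy of the fatty acid binding protein gene Fabp5 (adjusted p = 0.0341), Gm12892, a copy of the brain creatine kinase gene Ckb (adjusted p = 0.0219), and Gm8417, the copy of Armh4 (adjusted p = 0.0200).

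Several called features stood among neighbours with fold changes of the same sign. Over all 34518 features, 20930 log2 ratios were negative and 13588 positive, and 4.65% were called lower and 1.16% higher. Within 100 kb of the Gm31520 feature the table listed 19 features, and all 19 had negative log2 ratios (median -1.93 in the authors' deposited table), with 3 called lower. These 3 lay outside annotated genes, and some of the other neighbours lay inside the Gm31520 gene. Gm14694 had 14 listed neighbours, all negative, with a median of -1.94 and 6 of them called lower in the authors' deposited table. Of these 6, 1 was the other called feature of Gm14694 itself. The 14 summed, without the MSTRG.89646 feature itself, to 7.10 CPM in FOG2_OE against 24.8 CPM in WT, and the most abundant of them, MSTRG.89655 (chrX:74879796-74880049, outside annotated genes), stood at 1.92 and 7.98 CPM. Gm8189 had 12 neighbours, 11 of them negative and 3 called lower. These 3 lay outside annotated genes, and some of the others lay inside the Gm8189 gene. Among the latter, MSTRG.42370 at the far end of the gene stood at 42.5 and 68.8 CPM and the authors' deposited table gave a log2 ratio of -0.70 (implied SE 0.24, adjusted p = 0.0560).

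Around the Olfr1372-ps1 feature 9 of 13 neighbours were negative, 4 of them its own other features, and 0 were called. That share of negative values was not far from the 20930 of 34518 over all features. The 2 features called higher over 7530428D23Rik had each other and MSTRG.51968 between them, at 0.0824 CPM in FOG2_OE against 0.00426 CPM in WT, which was not called (adjusted p = 0.101 in the authors' deposited table). Around Gm4813, 6 of 11 neighbours were positive, and the one called was Gm8399. The nearest, MSTRG.24622 at 1.55 kb and MSTRG.24623 at 3.38 kb, had log2 ratios of 3.14 and 2.20. They stood at 0.00877 and 0.0169 CPM in WT and were not called (adjusted p = 0.0548 and 0.293 in the authors' deposited table). The negative neighbours lay 26.7 kb away or farther. The neighbours of the Dcdc5 feature included 8 positive of 11, all 8 inside the Dcdc5 gene itself. The one called, MSTRG.47866 inside Dnajc24, was lower, at 0 CPM in FOG2_OE against 0.0510 CPM in WT. Gm8616 had 4 neighbours and Gm6445 had 2, with 0 called.

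**Figure D3:**
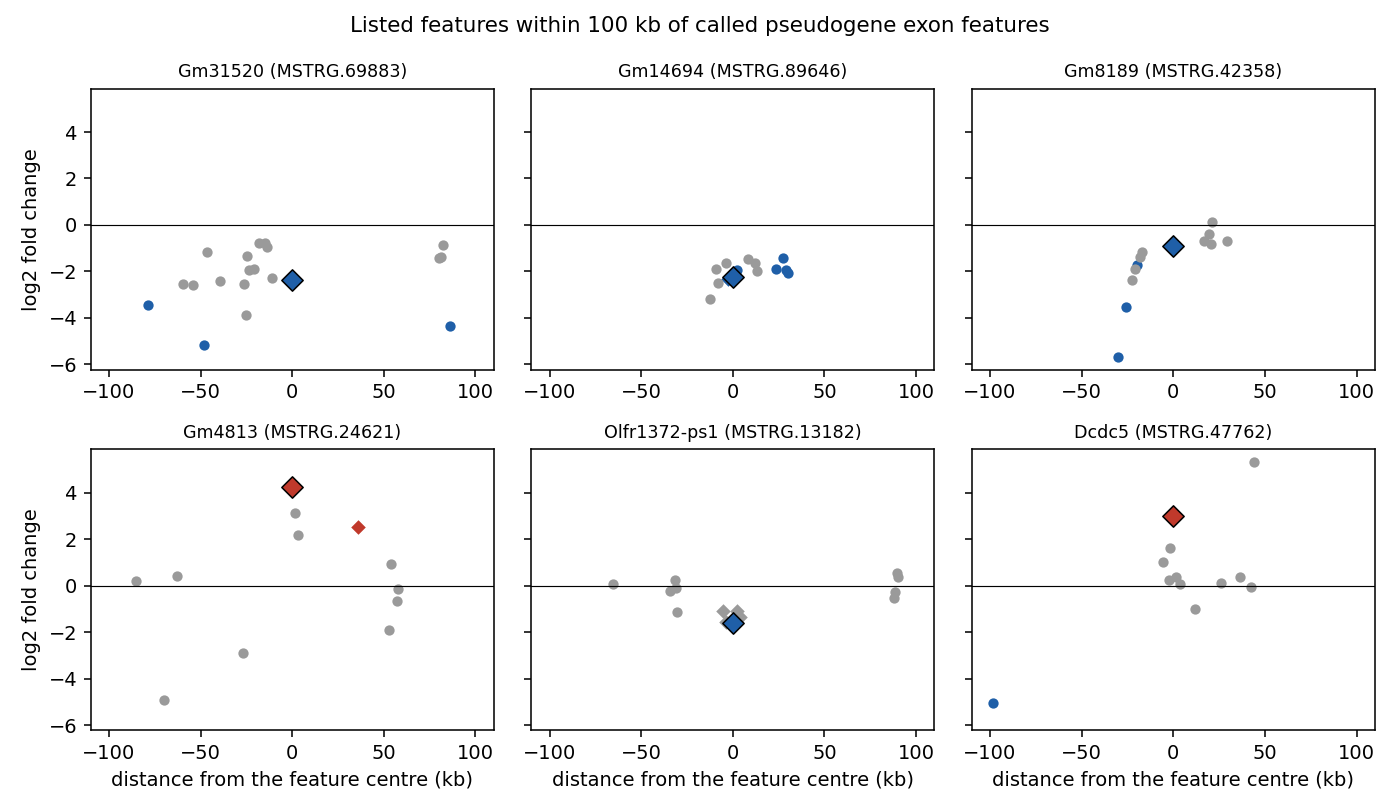
Log2 ratio, FOG2_OE over WT, of every listed feature within 100 kb of 6 called pseudogene exon features, by distance in kb from the centre of that feature; diamonds are pseudogene exon features, the outlined one being that named above the panel, circles are other features, blue is called lower, red called higher and grey not called. All 19 neighbours of Gm31520 and all 14 of Gm14694 lie under 0, while those of Gm4813 lie on both sides.

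By type, processed copies, transcribed or not (384 features), had 5 called higher (1.30%, against 1.16% of all features) and 1 lower (0.260%, against 4.65%), with a median log2 ratio of 0.10 in the authors' deposited table. Unprocessed copies, transcribed or not (93 features), had 0 called higher and 5 lower (5.38%), the latter close to the background, with a median of -0.06 in the authors' deposited table that turned to 0.16 relative to all features. In summed level the processed copies stood at 469 CPM in FOG2_OE against 428 CPM in WT, and the unprocessed ones at 168 and 218 CPM, of which Gm8189 alone held 52.9 and 99.1 CPM. The difference between the types was not tested. The 5 transcribed unitary pseudogene features had 1 positive value, that of Dcdc5, and 4 negative ones. The 4 features of polymorphic pseudogenes, genes intact in some mouse strains and broken in others, summed to 10.4 and 4.15 CPM. Most of this was Mx2, an interferon-induced antiviral GTPase gene, whose feature MSTRG.35068 stood at 9.60 CPM in FOG2_OE against 3.20 CPM in WT but was not called, and the authors' deposited table gave a log2 ratio of 1.59 (implied SE 0.62, adjusted p = 0.135).

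By likeness to a coding transcript, the 281 features at least 95% identical to one over the exon piece had 1 called higher (Gm8399) and 1 lower (Gm6445), 0.712% beside the 5.81% of all features, with a median log2 ratio of 0.16 in the authors' deposited table. They summed to 243 CPM in FOG2_OE against 206 CPM in WT. The 115 features with 85 to 95% identity had 2 called in each direction (3.48%) and a median of 0.02 in the authors' deposited table. The 28 under 85% had 0 called and a median of -0.05, and the 66 without a close coding match had 3 called in each direction (9.09%) and a median of -0.17, by the authors' deposited table. Relative to all features these last medians turned to 0.17 and 0.04. Among features of at least 20 fitted counts the medians were 0.18, 0.04, -0.16 and -0.07 in the same order of classes. Relative to all 34518 features the last pair turned to 0.05 and 0.15, while the 8176 features of that abundance had a median of -0.19. The differences in share called between the classes were not tested. Across features, Spearman's rho between identity and log2 ratio was 0.10 (n = 450), and 0.21 for those of at least 20 fitted counts (n = 192). The features share libraries, near-identical sequence and parents, and these values are descriptions. By coverage, the 349 features at least 50% covered by exons had a median of 0.16 and the 141 others one of -0.09 in the authors' deposited table, which turned to 0.12 relative to all features. How coverage relates to identity was not tested.

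**Figure D4:**
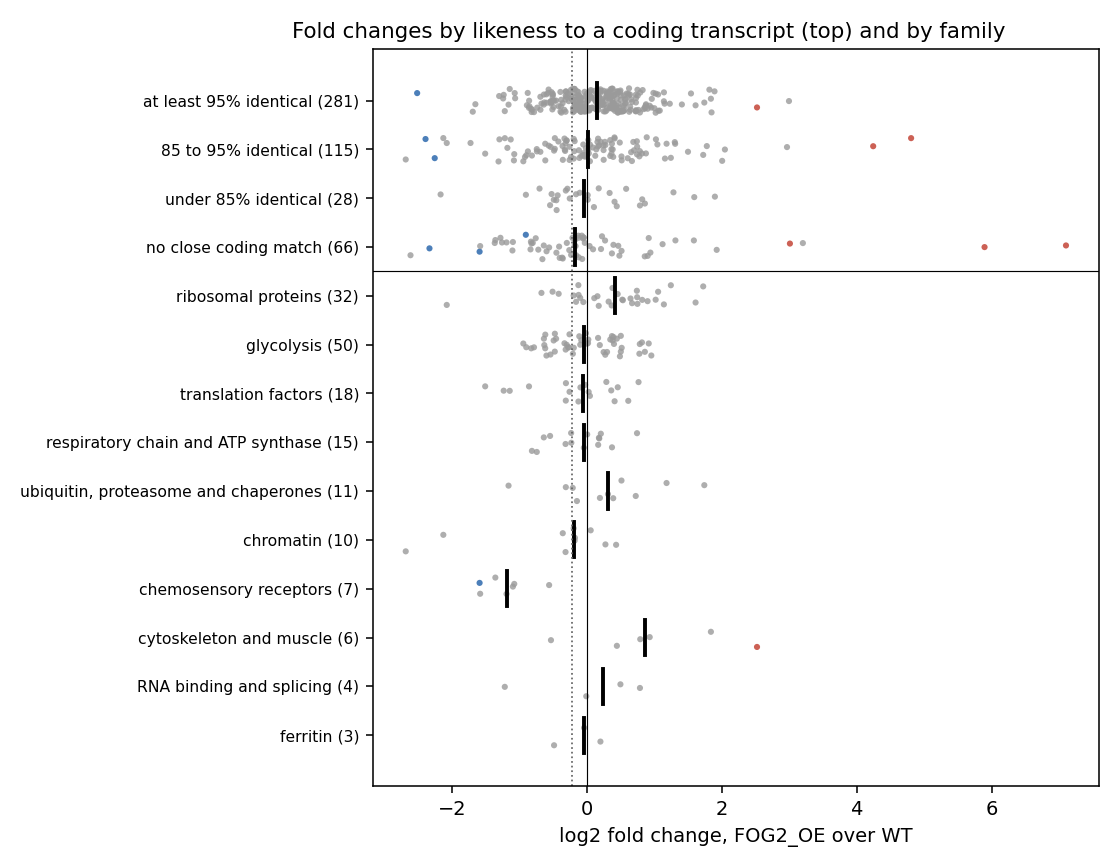
Log2 ratio, FOG2_OE over WT, of each pseudogene exon feature by identity to a coding transcript (above the line) and by family (below the line), with the number of features in parentheses, the median as a bar, and the median of all features as a dotted line at -0.21. Families follow the pseudogene's name, or the parent gene where the name is provisional. Red points were called higher and blue ones lower; ribosomal protein copies have a median of 0.42 and chemosensory receptor pseudogenes one of -1.19.

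Families were taken from the pseudogene's name, or from the parent gene where the name is provisional. They were small, so that a count of called members stands against the same background of 1.16% higher and 4.65% lower. The 32 ribosomal protein copies, from genes of both ribosomal subunits, had 0 called, 22 positive and 10 negative log2 ratios, and a median of 0.42 in the authors' deposited table. They summed to 41.9 CPM in FOG2_OE against 35.9 CPM in WT. Rpsa-ps10 stood at 10.8 and 8.30 CPM (log2 ratio of 0.38, implied SE 0.29 and adjusted p = 0.543 by the authors' deposited table). Rps24-ps3 stood at 4.36 and 3.91 CPM, and Gm13071, a distant Rps18 copy of which exons cover 8.50%, at 7.30 and 8.15 CPM. The lowest of the 32, Gm6630, stood at 0.0168 and 0.0758 CPM and was not called.

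The 50 glycolytic copies had 0 called and a median of -0.05 in the authors' deposited table, or 0.17 relative to all features. Of them, 45 were Gapdh copies, each between 0.0490 and 0.552 CPM on average over the groups, 21 positive and 24 negative, which summed to 7.66 CPM in FOG2_OE against 7.49 CPM in WT. The highest Gapdh copy, Gm9522, stood at 0.515 and 0.589 CPM. Gm5514, a copy of the lactate dehydrogenase gene Ldhb, stood at 5.83 and 3.01 CPM but had an implied SE of 1.11 and was not called (log2 ratio 0.96, adjusted p = 0.730 in the authors' deposited table).

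The 18 copies of translation factor genes had 0 called and a median of -0.06, or 0.16 relative to all features. Eif3s6-ps2, from the initiation factor gene Eif3e, stood at 5.02 CPM in FOG2_OE against 4.93 CPM in WT, and Gm13456, from Eef1a1, at 4.91 and 4.76 CPM. The 15 copies of respiratory chain and ATP synthase genes had 0 called and a median of -0.04, or 0.17 relative to all features. Gm6969 stood at 9.30 and 8.19 CPM, and Gm5436, a copy of the ATP synthase gene Atp5o, at 2.17 and 1.92 CPM. Copies of ubiquitin, proteasome and chaperone genes (11) had a median of 0.31 and 0 called, led by the Psmb5 copy Gm3375 at 6.26 and 5.04 CPM. Chromatin protein copies (10) had a median of -0.19, which turned to 0.03 relative to all features, and 0 called.

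The 6 copies of cytoskeletal and muscle genes had 5 positive values and 1 call, Gm8399. The most abundant was Mylf-ps, a copy of the skeletal myosin light chain gene Myl1, at 29.6 CPM in FOG2_OE against 21.8 CPM in WT (log2 ratio of 0.44, implied SE 0.23 and adjusted p = 0.314 by the authors' deposited table). Exons cover 14.4% of that feature. The 7 chemosensory receptor features, 5 of Olfr1372-ps1, 1 of Vmn2r-ps18 and 1 of Gm21978, a Vmn2r120 copy, were all negative, on the centred scale too, with a median of -1.19 and 1 called. These receptors serve smell and pheromone detection in the nose. The Olfr1372-ps1 features were placed in this family by name alone. That pseudogene had no assigned coding parent. The closest coding match of its features was never an odorant receptor gene (Lrat, Mdm2, Mga, 1500011B03Rik or none). Vmn2r-ps18 stood at 0.0927 and 0.214 CPM. The 4 copies of RNA-binding protein genes and the 3 of ferritin genes had 0 called, and no feature matched an immune receptor gene.

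Levels differ in order when span is taken into account. By CPM the highest uncalled feature was MSTRG.50679 over Gm14267, a transcribed processed pseudogene with exons over 10.9% of its 28944 bases, at 75.3 CPM in FOG2_OE against 53.9 CPM in WT. The authors' deposited table gave a log2 ratio of 0.48 (implied SE 0.25, adjusted p = 0.311). Per length of the listed span, Mylf-ps was first at 128 CPM per kb averaged over the groups. It was followed by the Zfp106 copy Gm18234 at 69.8 CPM per kb, Rpsa-ps10 at 65.4, Gm6969 at 52.4 and the Glo1 copy Gm13443 at 40.04. Exons covered at least 50% of 10 of the 12 highest features on this scale, and 0 of these 12 were called. The median of the pseudogene exon features was 0.626 CPM per kb and that of all features 0.371.

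The other abundant features were not called. Gm10033 stood at 21.3 CPM in FOG2_OE against 23.9 CPM in WT, Vamp7-ps at 21.7 and 22.4 CPM, and Gm8995, a copy of the interferon-inducible GTPase gene Gvin1, at 16.4 and 15.4 CPM. Gm1840, a copy of the glucose-6-phosphate isomerase gene Gpi1 whose exons cover the whole feature, stood at 13.4 and 10.9 CPM. All 4 missed the threshold, with adjusted p between 0.590 and 0.952 in the authors' deposited table. The remaining abundant features were Gm21013 at 13.0 and 9.87 CPM, Pisd-ps1, related to the phosphatidylserine decarboxylase gene Pisd, at 13.2 and 13.7 CPM, D630033A02Rik at 15.2 and 20.1 CPM, and AC098880.2, related to Zfp980, at 17.0 and 20.3 CPM. Pseudogene exons cover between 4.28% and 28.5% of the spans of these last 4. The 7 Gvin1-related features were all positive (median 0.37 in the authors' deposited table) and none was called, with a sum of 23.7 CPM in FOG2_OE against 21.2 CPM in WT.

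Of the 10 pseudogenes with 3 or more features, Olfr1372-ps1 alone had a called feature. Gm2693, related to the glutathione transferase gene Gsta3, had 3 features, all negative (-1.10 to -0.43 in the authors' deposited table), at 0.391 CPM in FOG2_OE and 0.601 CPM in WT in all. Gm3325, related to Zfp808, had 3 features that summed to 9.44 and 9.33 CPM in the same order. Gm49327, related to the calcium sensor gene Hpcal1, had 4 features, all negative on the deposited scale (-1.28 to -0.12 in the authors' deposited table), at 1.74 and 1.99 CPM. The 3 features of 9130208D14Rik, one of the Gvin1-related pseudogenes, were all positive, at 1.75 and 1.44 CPM, and the 3 of 2810039B14Rik were all negative, at 0.515 and 0.609 CPM, though 2 of them turned positive on the centred scale. Gm3365, related to the cadherin gene Cdh11, and Gm49760, related to Zfp960, had features on both sides of 0. Zkscan7, annotated here as a transcribed unprocessed pseudogene, had values from -0.12 to 1.12 in the authors' deposited table and summed to 3.86 and 3.97 CPM.

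For 17 parent genes the table also listed a feature over an exon of the parent on its own strand, 22 features in all, of which 1 was called. That was MSTRG.27025 over Armh4, at 14.9 CPM in FOG2_OE against 6.51 CPM in WT, and the authors' deposited table gave a log2 ratio of 1.20 (implied SE 0.29, adjusted p = 0.00171). The Gm8417 feature beside it stood at 0.584 and 0.236 CPM, and for it the authors' deposited table gave a log2 ratio of 1.30 (implied SE 0.45, adjusted p = 0.0578). The pair differs at 15 of the 180 positions shown above, and how reads were shared between them was not tested. For the ribosomal protein gene Rpl31 the parent feature stood at 12.2 and 10.4 CPM, with a log2 ratio of 0.23 (implied SE 0.25), beside 1.02 for Rpl31-ps8 in the authors' deposited table. For the glyoxalase gene Glo1, the 4 parent features ranged from -1.55 to -0.21, beside 0.01 for Gm13443 in the authors' deposited table. The lowest, MSTRG.36849, stood at 0.0259 CPM in FOG2_OE against 0.0791 CPM in WT (implied SE 1.18). The most abundant, MSTRG.36860, had the ratio of -0.21 (implied SE 0.33), at 5.25 and 6.07 CPM.

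Precision followed abundance in most features, with a few exceptions. Among features of at least 20 fitted counts with a solved dispersion, the median implied coefficient of variation between libraries was 32.0% for 156 pseudogene exon features and 32.6% for all 6673. It exceeded 100% in 5 of the 156 (3.21%) and in 35 of the 6673 (0.525%), a limit chosen after the values were seen. The 5 were Gm4815, a copy of the calponin gene Cnn3, Gm8822, a copy of the actin-related gene Actr3, Gm4366, a copy of the elongation factor gene Eef1g, Gm13410, a copy of the RNA helicase gene Ddx6, and Gm47083, of whose 143433 bases exons cover 0.266%. The first 4 are 96.9 to 99.4% identical to their coding match. Gm4815 stood at 4.66 CPM in FOG2_OE against 1.32 CPM in WT, with an implied SE of 1.24 and adjusted p = 0.500 by the authors' deposited table. Gm8822 stood at 1.57 and 0.439 CPM with an SE of 1.44, and Gm4366 at 0.984 and 2.31 CPM with an SE of 1.36. How the spread in these features was divided among the libraries cannot be read from fitted values.

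**Figure D5:**
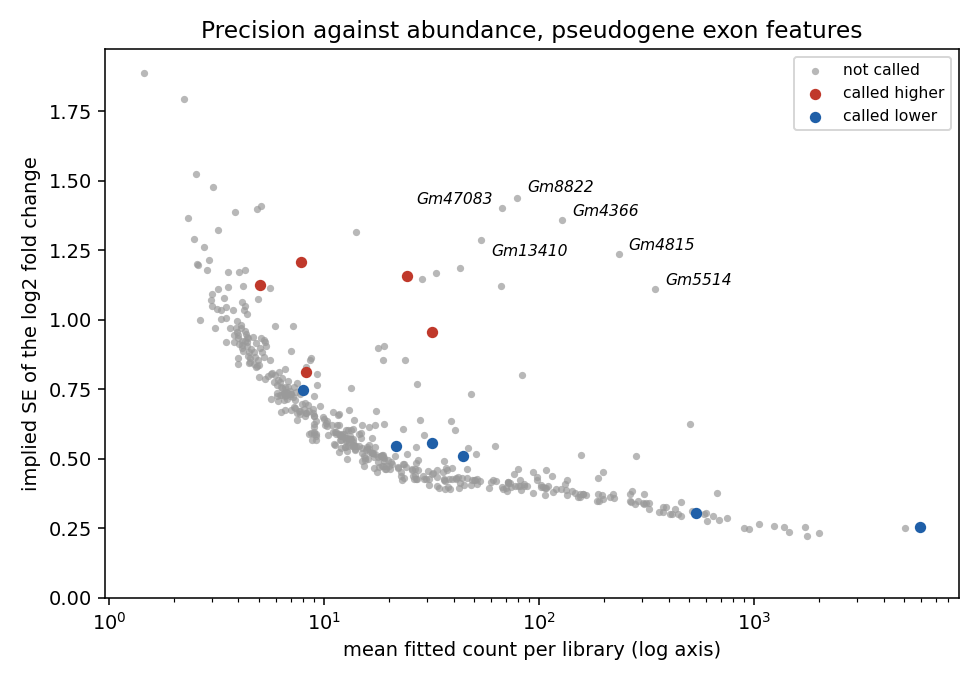
Implied SE of the log2 ratio of each pseudogene exon feature against its mean fitted count per library (log scale), coloured by call; the feature at 0 in WT has no SE and is not drawn. Most features follow 1 falling band, and the named features lie above it, with SE of 1.11 (Gm5514) to 1.44 (Gm8822) at 53.9 to 347 fitted counts.

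Other uncalled features with at least 20 fitted counts and large fold changes were near the threshold or imprecise. Gm13542, a Grb2 copy with exons over 29.3% of its span, stood at 0.605 CPM in FOG2_OE against 1.37 CPM in WT, and the authors' deposited table gave a log2 ratio of -1.18 (implied SE 0.40, adjusted p = 0.0594). Gm11839, a copy of the poly(A)-binding protein gene Pabpc4, stood at 0.302 and 0.744 CPM, and the authors' deposited table gave a log2 ratio of -1.30 (implied SE 0.61, adjusted p = 0.238). Gm19908, labelled by 1.09% of its span and related to Ssbp1, stood at 0.532 and 0.175 CPM, and the authors' deposited table gave a log2 ratio of 1.59 (implied SE 0.64, adjusted p = 0.140).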

How the data were processed

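Left atrial RNA of 3 FOG2_OE and 3 WT mouse libraries was compared. Per the submitters' processing notes, the build was mm10 and the tools were STAR, HTSeq 0.6.0, edgeR and deepTools, with no roles given. The authors' deposited table gave, for each feature, a log2 fold change, log2 CPM, a likelihood ratio score and p-values, and its 6 sample columns held a fitted signal (largest relative spread within a group 1.79e-15), not counts. No count test, left-out replicate or replicate block could therefore be run, and the authors' test is the main result; a quasi-likelihood fit was planned for counts.

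From these values, effective library sizes (718 features above 300 fitted counts), CPM, dispersions that give the deposited ratio (for ratios of at least 0.1) and implied SE were computed. Counts were simulated for FOG2_OE against WT (34516 features, 200 changed, all 200 among those of at least 20 fitted counts). The dispersion had a median error of 0.299%, and 12% of 2-fold and 67% of 4-fold changes were called, with 7 unchanged features called. The ratios behind both the dispersion error and these calls were computed with the simulated dispersions. The error therefore checks the solving alone, not how well the authors' dispersions are known.

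Starts count from 0 in the table (96 of 102 symbols lay 1 below RefSeq) and are printed from 1. Parents were the best BLAST+ 2.17.0 match of a pseudogene transcript to a coding transcript (at least 50% covered, 70% identical), preferring genes with a symbol of their own over provisional ones, a preference added later. Identity classes use the exon piece inside the feature, and features without a match over at least 50% of it form the last class. Members, lists and families were chosen with earlier results of these data known. Features named are the called ones, the 12 highest by CPM, the 5 highest and 5 lowest uncalled of at least 20 fitted counts, the highest of each family and type, and pseudogenes with 3 or more features, 1 of which is not reported here; Gm8417, Gm6166, Gm12892, Rpl31-ps8, Gm13443, Gm18234, Gm5436, Gm13456, Rps24-ps3, Gm13071, Gm6630, Gm9522, Gm13410, Gm21978 and Vmn2r-ps18 were added after their values were seen. Python 3.11.15, numpy 2.4.6, scipy 1.17.1, pandas 2.3.3 and matplotlib 3.10.9 were used.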

Additional observations from a re-analysis of the deposited data

How the results depend on the processing

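No paired analysis was possible because the sample columns are fitted values without replicate deviations, and for the same reason the fits planned for counts (left-out replicates, replicate block, DESeq2, no count filter) were not run. The main counts were 6 higher and 6 lower, 12 in all (2.45%). Over all features 1.16% were called higher, 4.65% lower and 5.81% in all. With at least 20 fitted counts the counts were 2 higher and 7 in all (3.48%, against 9% at that abundance). With exons over at least 50% of the feature they were 2 lower and 6 in all (0.573% and 1.72%). With exons on either strand (614 features) they were 16 lower and 24 in all. That setting also excluded long noncoding and small RNA exons on either strand. The equal split by direction did not hold there, and the listed strand is not taken as measured. With F and 10 residual degrees of freedom the counts were 3, 1 and 4, and with F and 4 they were 0, 0 and 0. The counts with 1 feature per pseudogene (5 higher, 4 lower) and on the centred scale (9 higher, 4 lower) stayed within 1.5 times the main ones. The median log2 fold change (0.04) was 0.16 with exons over at least 50%, -0.0093 with either strand and 0.26 on the centred scale. The log2 ratio of summed levels (-0.0066), near 0, became 0.19 with exons over at least 50%, 0.11 without Gm8189 and 0.21 on the centred scale. On that scale 12 of the 76 named features changed sign from slightly negative to slightly positive: Gm10033 (0.048), Vamp7-ps (0.17), Pisd-ps1 (0.16), Gm49331 (0.10), Zkscan7 (0.15 and 0.091), Gm49327 (0.097), Gm3325 (0.18 and 0.12), 2810039B14Rik (0.057 and 0.034) and Gm3365 (0.040). Apart from the changes that the settings' own construction makes (fewer features, another scale), the cause was not tested.

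The features held a median of 15.2 fitted counts per library with a median implied SE of 0.57. In the simulation of FOG2_OE against WT, changes were placed only in features of at least 20 fitted counts, and 12% of 2-fold changes were called. Of the 490 features, 201 reach that count, and detection below it was not simulated. Reads of near-identical copies may be shared with the parent or with other copies. How the authors placed such reads is not given in the sources used here.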
